A study of Mus musculus with 16 samples.

Results

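The 40 genes described here encode the machinery of the G2/M transition and of mitosis, the division of the duplicated chromosomes. They were matched by gene symbol to a list of names and make up 40 of the 55573 gene records of the count table. The matching used no measured value, but the names were chosen with earlier results of these data known. Each symbol matched 1 record, and all 40 genes passed the filter on low counts that left 13107 genes for testing. The genes are the transcription factor Foxm1, 5 genes of cyclins, CDK1 and its phosphatase, 4 mitotic kinases, 2 chromosomal passenger subunits and 5 spindle checkpoint genes. The others are 7 centromere and kinetochore genes, 7 spindle motor and microtubule genes, 3 cytokinesis genes, 4 genes of the anaphase-promoting complex, securin and separase, and the chromosome genes Top2a and Mki67.

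Cells enter mitosis when CDK1, bound to A-type and B-type cyclins, is freed of inhibitory phosphates by CDC25 phosphatases. The kinetochores, which join each chromosome to spindle microtubules, hold the spindle checkpoint on until every chromosome is attached. CDC20 then activates the anaphase-promoting complex, which marks securin and cyclin B for destruction, and separase is released to cut the cohesin rings that hold sister chromatids together. The mRNAs of these genes peak late in the cell cycle, so in a growing culture their level follows both the share of cells near mitosis and the amount of RNA per cell. In RNA from whole cultures fewer cells near mitosis and less RNA per cell cannot be told apart.

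The data are RNA sequencing counts from RAW264.7, a mouse macrophage-like cell line from a virus-induced tumour. The 16 libraries formed 4 groups of 4, with cells labelled Parental beside knockdowns (KD) labelled ORP5/8 KD, CDC50A KD and ATP11A/C KD. ORP5 and ORP8 carry phosphatidylserine to the plasma membrane, ATP11A is a flippase that keeps it on the inner leaflet, and CDC50A is the subunit such flippases need. All groups were plated the same way and collected on the following day, with no other agent named in the labels. KD library names start with "sh", an abbreviation left unexpanded in the labels, and a non-targeting control was not analysed here. The labels do not say whether the 4 libraries of a group came from separate cultures or clones, so the p-values measure the spread between libraries, which may be technical.

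The libraries held 24020883 to 41543047 counts. Of the targeted genes, Osbpl8 fell in all 3 KD groups, by 1.77 on the log2 scale for ORP5/8, 1.41 for ATP11A/C and 1.54 for CDC50A. Atp11a fell by 1.52 in ATP11A/C KD, and Tmem30a, which encodes CDC50A, fell by 0.35 in CDC50A KD and by 0.31 in ORP5/8 KD. Atp11a was also lower in CDC50A KD, at a mean of 43.1 CPM (the count scaled to library size), and in ORP5/8 KD, at 53.3. Its Parental mean was 61.4 CPM. Of the 4 targeted genes tested, 4 fell in ORP5/8 KD and 3 in each of the other KD groups. Osbpl5 was too low to test. Of 10 macrophage markers, 9 were detected in every library, with Cd68 at no less than 669 CPM. Mertk was at or near 0 throughout, and all 5 epithelial markers were at 0. The 10 macrophage markers summed to 11370 to 12115 CPM across the Parental libraries. The range was 7320 to 7734 for ORP5/8 KD, 6136 to 6536 for ATP11A/C KD and 7191 to 7492 for CDC50A KD. Lyz2, which encodes lysozyme, made up most of the Parental sum, and without it the ranges were 4368 to 4665 CPM for Parental, 3277 to 3489 for ORP5/8 KD, 3535 to 3993 for ATP11A/C KD and 4348 to 4548 for CDC50A KD. Of the 9 markers tested, 8 fell and 1 rose in ORP5/8 KD, 7 fell and 1 rose in ATP11A/C KD, and 5 fell and 2 rose in CDC50A KD. Adgre1 (F4/80) rose in all 3, and Csf1r also rose in CDC50A KD. The mitochondrial share of counts was 1.08% to 1.26% across the Parental libraries, with 1.52% to 1.77% for ORP5/8 KD, 1.36% to 1.78% for ATP11A/C KD and 1.42% to 1.76% for CDC50A KD. All 12 KD libraries were above all Parental libraries (two-sided exact permutation p = 0.0286 for each group, the smallest possible with 4 against 4). The part of either shift in the results on mitotic genes was not tested.

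Many mitotic promoters carry a CHR, the short element bound by the MuvB core of the DREAM and MYB-FOXM1 complexes, together with CCAAT boxes bound by NF-Y. The sequences just upstream of Cdc20, Ube2c, Espl1, Cdk1 and Top2a are shown because they carry these elements and because the genes behaved differently in the KD groups. Each line gives the 120 bases before the RefSeq gene start on GRCm38.p6, read 5′ to 3′ on the gene's strand. Capitals mark CHR letters (TTTGAA, or TTCAAA on the other strand, and TTCGAA, which reads the same on both) and CCAAT boxes (CCAAT, or ATTGG on the other strand).

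Cdc20: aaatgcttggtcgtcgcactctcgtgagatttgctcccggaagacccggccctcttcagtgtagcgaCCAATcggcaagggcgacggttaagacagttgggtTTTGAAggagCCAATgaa
Ube2c: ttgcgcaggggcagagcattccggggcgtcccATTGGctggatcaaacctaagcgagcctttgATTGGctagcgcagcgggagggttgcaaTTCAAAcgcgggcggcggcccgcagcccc
Espl1: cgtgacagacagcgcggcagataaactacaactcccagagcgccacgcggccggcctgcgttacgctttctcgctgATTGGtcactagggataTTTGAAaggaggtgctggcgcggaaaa
Cdk1: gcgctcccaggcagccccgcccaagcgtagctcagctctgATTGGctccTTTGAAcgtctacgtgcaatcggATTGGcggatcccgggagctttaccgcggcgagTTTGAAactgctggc
Top2a: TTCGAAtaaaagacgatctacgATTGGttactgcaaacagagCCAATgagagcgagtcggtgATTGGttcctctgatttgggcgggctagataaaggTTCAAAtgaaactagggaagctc

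These stretches lie at chr4:118437344-118437463 (-) for Cdc20, chr2:164769809-164769928 (+) for Ube2c, chr15:102296173-102296292 (+) for Espl1, chr10:69352913-69353032 (-) for Cdk1 and chr11:99024190-99024309 (-) for Top2a. In 4 further genes with large differences the CHR letters lay just after the start, and these shorter stretches show them in capitals in the same way. They lie at chr2:118598241-118598260 (+) for Bub1b, chr7:122159455-122159484 (+) for Plk1, chr17:71526809-71526838 (-) for Ndc80 and chr9:22389166-22389195 (-) for Anln, where the letters occur in both orientations side by side.

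Bub1b: agacgttaaaTTTGAAactt
Plk1: cagcgccgcgTTTGAAttcggggaggagcg
Ndc80: aactttaaaaTTCAAAccgccttgggttga
Anln: ggcgctgaaaTTCAAAtTTTGAAcggccgt

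RefSeq windows of 300 bases, from 250 before the start to 50 after it, were at hand for 32 of the 40 genes. Of these, 24 (75%) held TTTGAA on either strand, compared with 20.2% of 27025 genes with such a window. CCAAT on either strand was in 25 of the 32 (78.1%), compared with 41.1% of genes, and 17 of the 32 (53.1%) held it at 2 or more places, compared with 13.3%. Both elements were in 22 of the 32 (68.8%), compared with 8.61% of genes, and 23 of the 32 (71.9%) had CHR letters within 50 bases of the start, compared with 6.12%. Anln, Kif2c and Ndc80 held CHR letters without CCAAT, Ccnb1, Cenpe and Nek2 held CCAAT without CHR letters, and Birc5, Mad2l1, Nuf2 and Pttg1 held neither. A match is a run of letters and not a measured binding site. CHR letters were present in Anln and Ndc80, which were lower in the KD groups, as well as in Cdc20 and Bub1b, which were higher. Aurkb, Ccna2, Cdc25c, Foxm1, Incenp, Kif20a, Spc24 and Tpx2 had no window.

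The 40 genes were expressed in every library, at levels that differed widely between genes. Per kilobase of exon, the Parental levels ran from 86.0 CPM for Mki67, 65.5 for Top2a, 65.3 for Cdc20 and 63.8 for Plk1 down to 7.96 for Ndc80 and 5.17 for Cdc25c. The levels of the 40 genes summed to 6331 ± 129 CPM (SD, n = 4 libraries) for Parental, 6678 ± 138 for ORP5/8 KD, 6219 ± 77.9 for ATP11A/C KD and 6468 ± 59.2 for CDC50A KD. The summed level of single libraries ran from 6128 to 6855 CPM. No gene of the 40 differed by 2-fold in any comparison, whether called or not. Of all tested genes, 6.54% were called and differed by 2-fold or more in ORP5/8 KD against Parental. The share was 4.98% for ATP11A/C KD and 6.41% for CDC50A KD. Between KD groups the share was 4.57% (ORP5/8 against ATP11A/C), 8.13% (ORP5/8 against CDC50A) and 1.67% (CDC50A against ATP11A/C). Single genes differed in both directions, and 29 of the 40 genes differed among the 4 groups (edgeR quasi-likelihood test, Benjamini-Hochberg adjusted p under 0.05), where 72.7% of all tested genes did.

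In ORP5/8 KD, most called genes were higher than in Parental. At an adjusted p under 0.05, 18 of the 40 (45%) were higher and 3 (7.5%) lower, where 46.2% of all tested genes were called, 22% of them higher and 24.3% lower. The median log2 fold change of the 40 was 0.09, compared with 0.02 for all tested genes. Upper-quartile scaling gave 26 higher and 3 lower. Over all genes that scaling moved the share of calls that were higher from 47.5% to 63.3%.

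In ATP11A/C KD, fewer genes were called, 5 of the 40 (12.5%) higher and 8 (20%) lower, where 37.6% of all tested genes were called, 17.4% higher and 20.2% lower. The members' median was 0.02 and that of all genes 0.01, and the called share of the 40 (32.5%) was near the background. With upper-quartile scaling 8 were higher and 7 lower. In CDC50A KD, 13 (32.5%) were higher and 7 (17.5%) lower, where 50.4% of all tested genes were called, 24.3% higher and 26.1% lower. The called share of 50% was at the background, and the median was 0.04 against -0.01 for all genes. The 3 comparisons share the Parental libraries, so their values are set side by side below without a test of likeness.

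**Figure D1:**
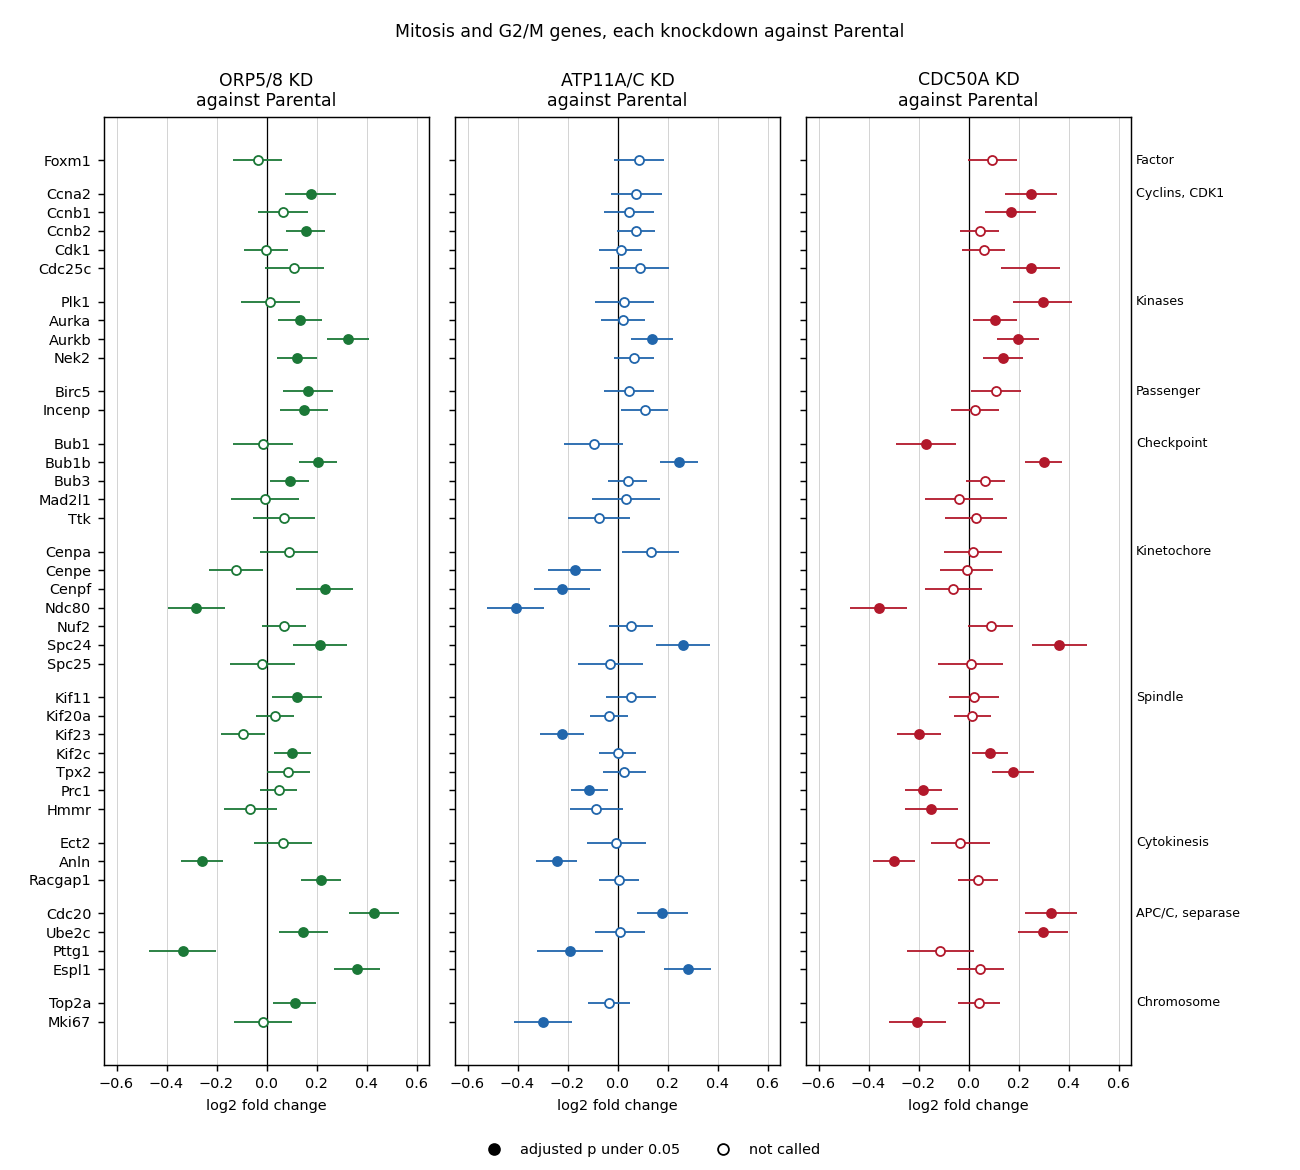
Log2 fold change of each of the 40 genes in each KD group against Parental, grouped by role, with 95% confidence intervals as bars (4 against 4 libraries, TMM scaling). Filled points passed an adjusted p of 0.05; the points span -0.34 to 0.43 in ORP5/8 KD, -0.41 to 0.28 in ATP11A/C KD and -0.36 to 0.36 in CDC50A KD.

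Foxm1, the transcription factor that drives many G2/M genes, did not pass the test against Parental in any KD group. It was at 196, 179.7, 179.8 and 191 CPM in Parental and 176, 182, 189 and 181 in ORP5/8 KD. It was at 217, 182, 200.2 and 192 CPM in ATP11A/C KD and 204, 199, 200.2 and 195 in CDC50A KD. Each KD group overlapped Parental, while every ORP5/8 KD library lay below every CDC50A KD library. The log2 fold changes against Parental were -0.04 ± 0.0476 (SE, 95% interval -0.13 to 0.06), 0.09 ± 0.0476 (-0.01 to 0.18) and 0.10 ± 0.0477 (-0.00 to 0.20) for ORP5/8, ATP11A/C and CDC50A KD. ATP11A/C KD 1 was the highest library of its group, and without ATP11A/C KD 2 the gene was called higher there (log2 0.14, adjusted p = 0.0221). In CDC50A KD it was called when the compared groups were fitted alone (0.09, adjusted p = 0.0444) and without Parental 1 (0.13, adjusted p = 0.0457).

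Cdk1, the kinase at the centre of mitotic entry, did not pass the test in any KD group. It was at 134, 139, 139 and 138 CPM in Parental and 139, 139, 136 and 135 in ORP5/8 KD. It was at 134, 148, 135 and 137 CPM in ATP11A/C KD and 142, 138, 139.6 and 153 in CDC50A KD. All groups overlapped, and the 95% intervals of the log2 fold change were -0.09 to 0.09 in ORP5/8 KD, -0.07 to 0.10 in ATP11A/C KD and -0.03 to 0.15 in CDC50A KD, with adjusted p = 0.973, 0.85 and 0.244.

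Ccnb1 encodes cyclin B1, the main partner of CDK1 at mitotic entry. It was at 199.9, 215, 228 and 205 CPM in Parental and 226, 217, 215 and 231 in ORP5/8 KD. It was at 206, 236, 214 and 220.1 CPM in ATP11A/C KD and 229, 237, 241 and 247 in CDC50A KD. Every CDC50A KD library lay above every Parental library, though only just, and the gene rose there by 0.17 ± 0.0483 (log2, adjusted p = 0.00643). The values in the other KD groups overlapped Parental (adjusted p = 0.273 and 0.502). Its expected counts had decimals in all 16 libraries, meaning that RSEM shared reads between it and another gene, so its level is less certain than that of the 36 genes with whole counts throughout.

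The other cyclins behaved differently from Cdk1. Ccna2, cyclin A2, which acts from S phase into early mitosis, was at 246 ± 10.5 CPM in Parental and rose to 293 ± 11.9 in CDC50A KD (log2 0.25 ± 0.0492, adjusted p = 0.000251) and 278 ± 14.5 in ORP5/8 KD (0.18 ± 0.0491, adjusted p = 0.00568). Ccnb2, the second B-type cyclin, rose in ORP5/8 KD (0.16 ± 0.0368, adjusted p = 0.00146). Cdc25c, a phosphatase that activates CDK1, rose in CDC50A KD (0.25 ± 0.0571, adjusted p = 0.00108) from 25.4 ± 1.19 to 30.2 ± 1.68 CPM. In ATP11A/C KD none of the 5 genes of this role was called by edgeR, and each had an unadjusted p over 0.05. Upper-quartile scaling called Ccnb2 there (0.10, adjusted p = 0.0468) and called Ccnb1 (0.14, adjusted p = 0.0232) and Cdc25c (0.19, adjusted p = 0.0105) in ORP5/8 KD.

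Plk1, the kinase that acts in centrosome maturation, spindle assembly and cytokinesis, rose in CDC50A KD. It was at 146, 146, 138 and 131 CPM in Parental and 132, 144, 149.8 and 142 in ORP5/8 KD. It was at 158, 128, 145 and 141 CPM in ATP11A/C KD and 169, 168, 182 and 171 in CDC50A KD. The 4 CDC50A KD libraries lay above all 12 others, with log2 fold changes against Parental of 0.30 ± 0.0567 (adjusted p = 0.000191), 0.02 ± 0.0567 (ORP5/8 KD, adjusted p = 0.844) and 0.03 ± 0.0567 (ATP11A/C KD, adjusted p = 0.753). The direct comparisons gave -0.28 ± 0.0566 for ORP5/8 against CDC50A KD (adjusted p = 0.000264) and 0.27 ± 0.0566 for CDC50A against ATP11A/C KD (adjusted p = 0.00167).

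Aurkb encodes Aurora B, the kinase of the chromosomal passenger complex, which corrects faulty kinetochore attachments. It was at 113, 122, 119 and 116 CPM in Parental and 144, 152, 143 and 150.1 in ORP5/8 KD. It was at 126, 129, 128 and 133 CPM in ATP11A/C KD and 129, 130.4, 139.5 and 140.4 in CDC50A KD. No KD library was as low as any Parental library, and ORP5/8 KD lay above the other KD groups too. The gene rose by 0.33 ± 0.0405 (ORP5/8 KD, adjusted p = 9.02e-07), 0.14 ± 0.0406 (ATP11A/C KD, adjusted p = 0.011) and 0.20 ± 0.0407 (CDC50A KD, adjusted p = 0.000386). ORP5/8 KD exceeded ATP11A/C KD by 0.19 ± 0.0403 (adjusted p = 0.000718) and CDC50A KD by 0.13 ± 0.0404 (adjusted p = 0.00976).

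The passenger partners of Aurora B, Birc5 (survivin) and Incenp (the scaffold of the complex), rose in ORP5/8 KD by 0.17 ± 0.0478 (adjusted p = 0.00691) and 0.15 ± 0.0454 (adjusted p = 0.00988). Neither was called in the other KD groups, although all 4 CDC50A KD libraries lay above Parental for Birc5 (0.11 ± 0.048, adjusted p = 0.061) and a fit of these groups alone called it (0.11, adjusted p = 0.0197). Incenp in ATP11A/C KD was at 0.11 ± 0.0455 (adjusted p = 0.0673) and was called under 6 of the 15 other settings, among them without Parental 1 (0.14, 0.0304), ATP11A/C KD 2 (0.14, 0.0177) or ATP11A/C KD 4 (0.13, 0.0442). Aurka, the kinase of the spindle poles, rose in ORP5/8 KD (0.13 ± 0.0419, adjusted p = 0.0127). Its call in CDC50A KD (0.11 ± 0.0421, adjusted p = 0.0395) was lost under 9 settings. These included leaving out Parental 3 or 4 or any CDC50A KD library, with adjusted p = 0.193 and log2 0.08 without CDC50A KD 3. Nek2, a kinase of centrosome separation, rose in ORP5/8 KD by 0.12 ± 0.0383 (adjusted p = 0.0117) and in CDC50A KD by 0.14 ± 0.0384 (adjusted p = 0.00471).

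Of the spindle checkpoint genes, Bub1b was higher in all 3 KD groups. It encodes BUBR1, a part of the complex that holds back CDC20. It was at 231, 220.3, 222 and 228 CPM in Parental and 269, 262, 258 and 251 in ORP5/8 KD. It was at 269, 265, 269.8 and 265 CPM in ATP11A/C KD and 285, 266, 276 and 283 in CDC50A KD. All 12 KD libraries lay above the 4 Parental libraries, and the gene rose by 0.21 ± 0.0362 (ORP5/8 KD, adjusted p = 8.29e-05), 0.24 ± 0.0362 (ATP11A/C KD, adjusted p = 1.43e-05) and 0.30 ± 0.0362 (CDC50A KD, adjusted p = 7.9e-07). Bub1, the kinase that recruits checkpoint proteins to kinetochores, moved the other way in CDC50A KD, where it fell by 0.17 on the log2 scale (SE 0.0573, adjusted p = 0.0168). Without Parental 1 that call was lost (log2 -0.16, adjusted p = 0.051). Bub3, which carries both BUB proteins, was called higher in ORP5/8 KD (0.09 ± 0.0369, adjusted p = 0.0454), but 7 settings ended the call. Among these were leaving out Parental 3 (log2 0.08, adjusted p = 0.11), Parental 4, or ORP5/8 KD 2, 3 or 4 (0.10 each, adjusted p of 0.0514 to 0.0682). Mad2l1 (MAD2) and Ttk (MPS1), which form and start the checkpoint signal, were not called against Parental in any KD group, with log2 fold changes of -0.01, 0.03 and -0.04 for Mad2l1 and 0.07, -0.07 and 0.03 for Ttk.

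The 4 subunits of the NDC80 complex, the microtubule hook of the kinetochore, moved apart from each other. Ndc80 fell in all 3 KD groups. It was at 50.3, 48.4, 53.5 and 54.5 CPM in Parental and 45.9, 43.4, 38 and 42.8 in ORP5/8 KD. It was at 37.4, 39.2, 38.5 and 40.8 CPM in ATP11A/C KD and 41, 40.3, 38.7 and 41 in CDC50A KD. Every KD library lay below every Parental library, and the log2 fold changes were -0.28 ± 0.0545 (ORP5/8 KD, adjusted p = 0.000231), -0.41 ± 0.0549 (ATP11A/C KD, adjusted p = 4.3e-06) and -0.36 ± 0.0551 (CDC50A KD, adjusted p = 1.66e-05). Its partner Spc24 rose in the same groups. It was at 28.1, 31.6, 31.4 and 29.5 CPM in Parental and 34, 34.8, 36.6 and 34.4 in ORP5/8 KD. It was at 36.5, 35.8, 36.7 and 35.5 CPM in ATP11A/C KD and 42.3, 37.7, 37.9 and 37.1 in CDC50A KD. Every KD library lay above every Parental library, and the gene rose by 0.21 ± 0.0521 (adjusted p = 0.00191), 0.26 ± 0.0522 (adjusted p = 0.000442) and 0.36 ± 0.0523 (adjusted p = 7.6e-06) for ORP5/8, ATP11A/C and CDC50A KD. The other subunits, Nuf2 and Spc25, were not called against Parental, with log2 fold changes of 0.07, 0.05 and 0.09 for Nuf2 and -0.02, -0.03 and 0.01 for Spc25. Nuf2 was called higher in ORP5/8 KD under upper-quartile scaling (0.14, adjusted p = 0.00971).

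Cenpf, a large protein of the outer kinetochore and nuclear matrix, went in opposite directions in ORP5/8 and ATP11A/C KD. It was at 142 ± 6.61 CPM for Parental, 167 ± 11.4 for ORP5/8 KD, 122 ± 3.55 for ATP11A/C KD and 136 ± 9.73 for CDC50A KD. It rose by 0.23 ± 0.054 (ORP5/8 KD, adjusted p = 0.00131) and changed by -0.22 ± 0.0543 (ATP11A/C KD, adjusted p = 0.00275), with no overlap with Parental in either. The direct comparison of those KD groups gave 0.45 ± 0.0541 (adjusted p = 7.9e-07), the largest difference among the 40 genes in the comparisons between KD groups. Cenpe, the kinesin that moves chromosomes to the spindle equator, fell in ATP11A/C KD by 0.17 (adjusted p = 0.0111), a call lost without Parental 1 (log2 -0.15, adjusted p = 0.0521). In ORP5/8 KD Cenpe was at -0.12 ± 0.0509 (adjusted p = 0.0555), and 5 other settings called it lower, among them without Parental 4 (-0.14, 0.0474) or ORP5/8 KD 1 (-0.14, 0.0451). Cenpa, the histone variant of centromeres, was not called in any KD group, at 0.09, 0.13 and 0.02. It was called higher in ORP5/8 KD without ORP5/8 KD 2 (0.15, adjusted p = 0.0251) and also in ATP11A/C KD without its library 1 (0.17, adjusted p = 0.0203).

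Among the motors and microtubule proteins, Kif23 and Prc1 of the central spindle fell in ATP11A/C and CDC50A KD. Neither was called in ORP5/8 KD, where Prc1 was at 18.8 CPM per kilobase of exon, beside 18.2 in Parental. Kif23 (MKLP1), which with RACGAP1 bundles microtubules between the separating chromosomes, was at 115 ± 3.56 CPM in Parental, with 98.6 ± 5.58 for ATP11A/C KD and 100.2 ± 1.83 for CDC50A KD. It fell by 0.22 (adjusted p = 0.000266) and 0.20 (adjusted p = 0.000558) on the log2 scale, and the value in ORP5/8 KD was -0.09 ± 0.0422 (adjusted p = 0.0757). Prc1, the crosslinker of antiparallel microtubules, fell in CDC50A KD by 0.18 (adjusted p = 0.000274). Its call in ATP11A/C KD (-0.11 ± 0.0356, adjusted p = 0.0158) was lost under 6 settings, 3 of them leaving out Parental 1 (log2 -0.09, adjusted p = 0.0884), Parental 3 (-0.10, 0.0579) or ATP11A/C KD 4 (-0.10, 0.0628). Tpx2, which targets Aurora A to the spindle, rose in CDC50A KD (0.18 ± 0.041, adjusted p = 0.00113) and was called in ORP5/8 KD only under upper-quartile scaling (0.16, adjusted p = 0.0025) and without Parental 1 (0.13, adjusted p = 0.016). Hmmr, a spindle pole protein, fell in CDC50A KD by 0.15 (adjusted p = 0.0199), a call lost without Parental 1 (log2 -0.13, adjusted p = 0.0702) and without CDC50A KD 3 (-0.14, adjusted p = 0.0529).

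Other motors differed by small amounts. Kif2c (MCAK), a microtubule-shortening kinesin, was called higher in ORP5/8 KD (0.10 ± 0.0351, adjusted p = 0.0197; 0.0767 with no low-count filter) and in CDC50A KD (0.09 ± 0.0353, adjusted p = 0.0476), where 11 settings ended the call. Those included leaving out Parental 1, 3 or 4 or any CDC50A KD library (log2 0.06 to 0.09, adjusted p of 0.0745 to 0.175). Kif11 (Eg5), which pushes the spindle poles apart, was called in ORP5/8 KD (0.12 ± 0.048, adjusted p = 0.0444) and lost under 7 settings. These included leaving out Parental 2, 3 or 4 or ORP5/8 KD 1, 2 or 4 (log2 0.10 to 0.13, adjusted p of 0.0544 to 0.104). Kif20a (MKLP2), which brings the passenger complex to the midzone, was not called against Parental, at 0.03, -0.03 and 0.02.

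Cytokinesis genes were also split. Anln encodes anillin, the scaffold that ties actin, myosin and septins together in the contractile ring. It was at 192, 179, 196 and 193 CPM in Parental and 164, 159.9, 156 and 156 in ORP5/8 KD. It was at 150.5, 166, 162 and 163 CPM in ATP11A/C KD and 156, 156, 151 and 156 in CDC50A KD. All 12 KD libraries lay below all 4 Parental libraries, and the log2 fold changes were -0.26 ± 0.0401 (ORP5/8 KD, adjusted p = 1.93e-05), -0.24 ± 0.0401 (ATP11A/C KD, adjusted p = 5.3e-05) and -0.30 ± 0.0402 (CDC50A KD, adjusted p = 3.28e-06). Racgap1, the GTPase-activating partner of KIF23 in centralspindlin, rose in ORP5/8 KD from 144 ± 3.14 to 167 ± 4.68 CPM (0.22 ± 0.0384, adjusted p = 8.88e-05) and was at 0.00 and 0.04 in the other KD groups. Ect2, the RhoA exchange factor that RACGAP1 recruits, was not called, at 0.07, -0.00 and -0.03.

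Cdc20, the activator of the anaphase-promoting complex, had the largest rise of the 40 genes in the comparisons with Parental. It was at 125, 123, 122 and 118 CPM in Parental and 151, 163, 176 and 168 in ORP5/8 KD. It was at 146, 129, 142 and 136 CPM in ATP11A/C KD and 152, 145, 158 and 158 in CDC50A KD. The KD groups all lay above Parental, ORP5/8 KD farthest. Cdc20 rose 1.35-fold in ORP5/8 KD, or 0.43 ± 0.0489 on the log2 scale (adjusted p = 2.67e-07), with 0.18 ± 0.049 (ATP11A/C KD, adjusted p = 0.00611) and 0.33 ± 0.049 (CDC50A KD, adjusted p = 1.13e-05). ORP5/8 KD exceeded ATP11A/C KD by 0.25 ± 0.0486 (adjusted p = 0.000308), whereas its difference from CDC50A KD was 0.10 ± 0.0486 (adjusted p = 0.0849).

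Ube2c, the ubiquitin-conjugating enzyme of the same complex, was at 112 ± 5.17 CPM in Parental and rose to 138 ± 8 in CDC50A KD (0.30 ± 0.0478, adjusted p = 2.88e-05). In ORP5/8 KD it was called at 0.15 ± 0.0477 (adjusted p = 0.0149), which was lost without Parental 4 (log2 0.12, adjusted p = 0.0638), and in ATP11A/C KD it was at 0.01 ± 0.0479 (adjusted p = 0.914). CDC50A KD exceeded ATP11A/C KD by 0.29 ± 0.0477 (adjusted p = 0.000204).

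Securin and separase, inhibitor and protease of the same pair, moved in opposite directions in ORP5/8 KD. Espl1 encodes separase. It was at 118, 115, 121 and 126 CPM in Parental and 156, 149, 158 and 155 in ORP5/8 KD. It was at 154, 138, 152 and 140.3 CPM in ATP11A/C KD and 127, 117, 126 and 126 in CDC50A KD. ORP5/8 and ATP11A/C KD lay wholly above Parental, while CDC50A KD overlapped it. Espl1 rose by 0.36 ± 0.0445 (ORP5/8 KD, adjusted p = 8.6e-07) and 0.28 ± 0.0446 (ATP11A/C KD, adjusted p = 3.48e-05), and was at 0.05 ± 0.0448 (CDC50A KD, adjusted p = 0.4). The direct tests put ORP5/8 KD 0.31 ± 0.0445 above CDC50A KD (adjusted p = 4.93e-06) and gave -0.23 ± 0.0445 for CDC50A against ATP11A/C KD (adjusted p = 0.000759).

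Pttg1 encodes securin, which holds separase inactive until anaphase. It was at 57.1, 60.6, 67.4 and 56.4 CPM in Parental and 43.7, 48.5, 48.8 and 50.4 in ORP5/8 KD. It was at 55.3, 57.5, 49.2 and 49.6 CPM in ATP11A/C KD and 52.7, 55.3, 60.1 and 55.1 in CDC50A KD. ORP5/8 KD lay wholly below Parental and the other KD groups overlapped it. The log2 fold change was -0.34 ± 0.0641 (ORP5/8 KD, adjusted p = 0.000199) and -0.11 ± 0.0642 (CDC50A KD, adjusted p = 0.151). The call in ATP11A/C KD (-0.19 ± 0.064, adjusted p = 0.024) was lost without Parental 2 (adjusted p = 0.0561), Parental 3 (0.115), ATP11A/C KD 3 (0.101) or ATP11A/C KD 4 (0.0898).

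Mki67, the source of the Ki-67 proliferation antigen that coats mitotic chromosomes, was lower in 2 of the KD groups. It was at 910.4, 832, 887 and 831 CPM in Parental and 918, 875, 831 and 803 in ORP5/8 KD. It was at 707, 684, 715 and 707 CPM in ATP11A/C KD and 814, 792, 731 and 667 in CDC50A KD. ATP11A/C and CDC50A KD lay wholly below Parental, with the CDC50A KD libraries widely spread, and ORP5/8 KD overlapped it. The log2 fold changes were -0.01 ± 0.0551 (ORP5/8 KD, adjusted p = 0.851), -0.30 ± 0.0552 (ATP11A/C KD, adjusted p = 0.0002) and -0.20 ± 0.0552 (CDC50A KD, adjusted p = 0.00404).

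Top2a, topoisomerase II alpha, which untangles sister chromatids, did not follow Mki67. It was at 598, 569.9, 614 and 579 CPM in Parental and 677, 654, 601 and 621 in ORP5/8 KD. It was at 559.9, 586, 584 and 578 CPM in ATP11A/C KD and 596, 623, 599 and 612 in CDC50A KD. ORP5/8 KD overlapped Parental, with its first library highest. The call in ORP5/8 KD (0.11 ± 0.0408, adjusted p = 0.029) was lost with no low-count filter (0.0558) and without Parental 2 (0.0538), Parental 4 (0.0755) or ORP5/8 KD 1 (0.0619). The other groups were at -0.03 ± 0.0408 (adjusted p = 0.568) and 0.04 ± 0.0408 (adjusted p = 0.421).

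**Figure D2:**
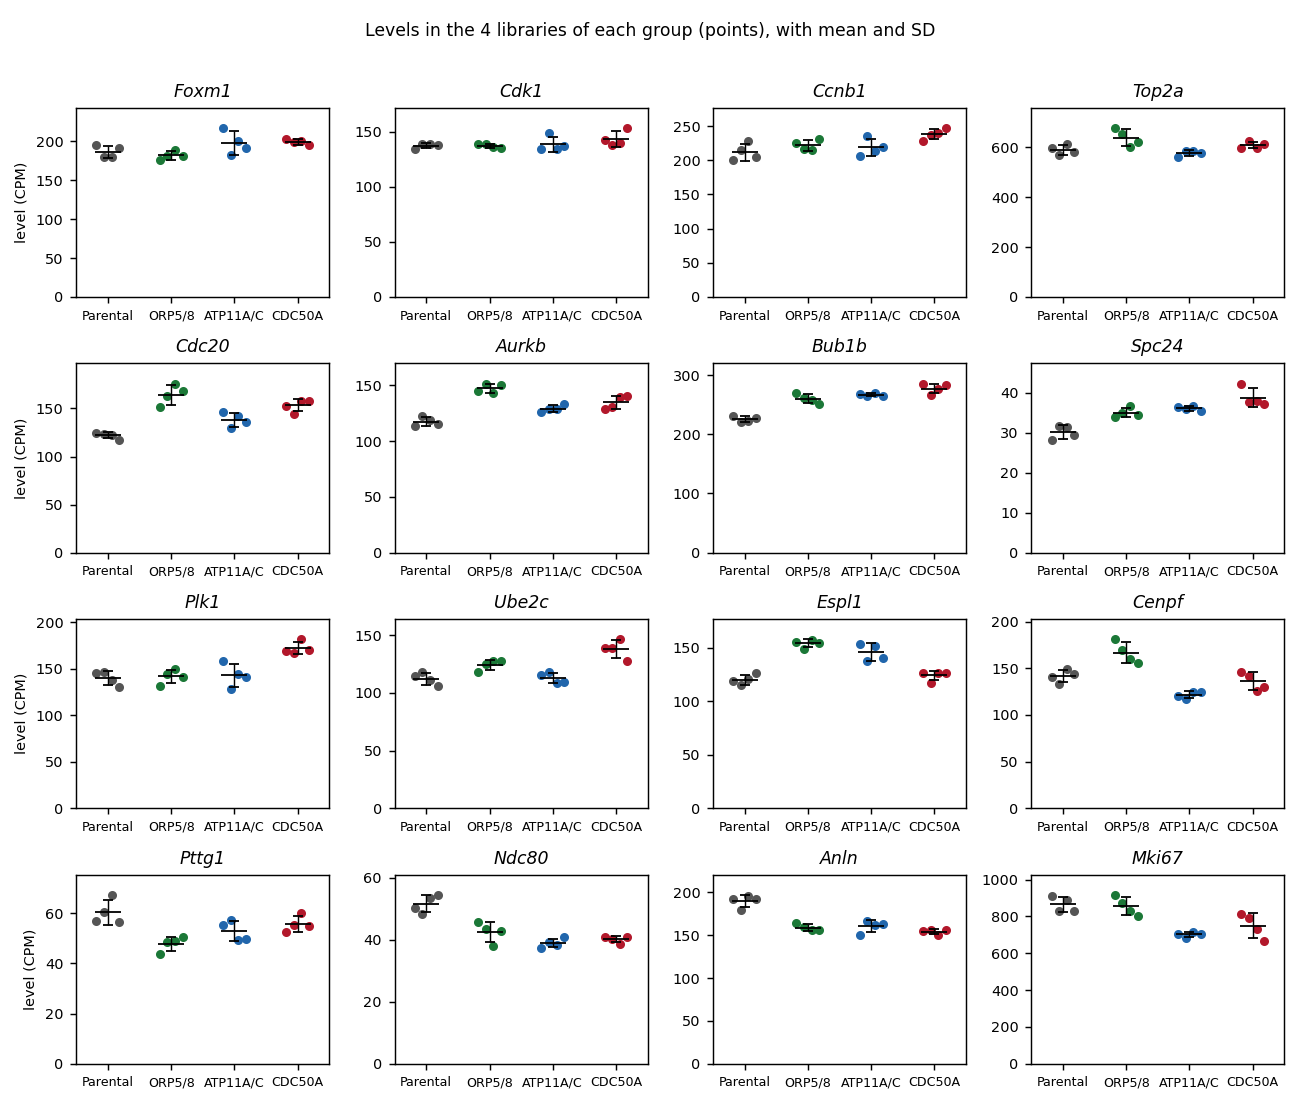
Level in CPM (vertical axis, from 0) of 16 of the genes in each library, with the 4 libraries of a group as points and the mean and SD as bars. Cdk1 overlaps between all groups, Ndc80 and Anln are lower in all 12 KD libraries than in Parental, and Bub1b, Spc24, Cdc20 and Aurkb are higher in all 12.

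The KD groups were next compared with each other in the same fit of 16 libraries. The Parental libraries thus took part in the filter, the scaling and the estimate of the spread. With the 2 compared groups fitted alone, 8 of 12 calls were made again for ORP5/8 against ATP11A/C KD. The figures were 15 of 17 for ORP5/8 against CDC50A KD and 5 of 9 for CDC50A against ATP11A/C KD. ORP5/8 KD exceeded ATP11A/C KD for 12 of the 40 genes (30%), where 38.7% of all tested genes were called, 18.2% higher and 20.4% lower. By edgeR 0 of the 40 were lower, 2 were lower at an unadjusted p under 0.05, and DESeq2 called 1, as did edgeR without ORP5/8 KD 3, ATP11A/C KD 2 or ATP11A/C KD 3. The members' median was 0.07, beside -0.00 for all genes, and 7 of the 12 calls were made in every one of 15 other settings. They were Cenpf, Mki67 (0.28 ± 0.0552, adjusted p = 0.000309), Cdc20, Racgap1 (0.21 ± 0.0383, adjusted p = 0.000146), Aurkb, Prc1 (0.16 ± 0.0355, adjusted p = 0.00101) and Top2a (0.15 ± 0.0408, adjusted p = 0.00715). Upper-quartile scaling gave 21 higher, and over all genes it moved the higher share of calls from 47.2% to 60.5%.

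ORP5/8 and CDC50A KD differed in both directions. Relative to CDC50A KD, 10 of the 40 genes (25%) were higher and 7 (17.5%) lower in ORP5/8 KD, where 56.8% of all tested genes were called, 27.5% higher and 29.4% lower. The calls made in every other setting were higher for Espl1, Prc1 (0.23 ± 0.0356, adjusted p = 1.58e-05), Cenpf (0.29 ± 0.054, adjusted p = 0.000108), Racgap1 (0.18 ± 0.0383, adjusted p = 0.000535), Mki67 (0.19 ± 0.0552, adjusted p = 0.00595) and Aurkb. They were lower for Plk1 and Pttg1 (-0.22 ± 0.0642, adjusted p = 0.00578). Foxm1 was called lower (-0.13 ± 0.0476, adjusted p = 0.0234), but 7 settings ended that call. The value was -0.06 under upper-quartile scaling (adjusted p = 0.254) and -0.12 to -0.11 when ORP5/8 KD 1 or 2 or CDC50A KD 1, 2 or 3 was left out (adjusted p of 0.058 to 0.0949). Upper-quartile scaling gave 22 higher and 2 lower, and over all genes moved the higher share of calls from 48.4% to 60.7%. The lower count was 4 without ORP5/8 KD 2 or CDC50A KD 1 and 3 without CDC50A KD 3.

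CDC50A and ATP11A/C KD had the fewest called genes of the 3 pairs. CDC50A KD was higher for 8 of the 40 genes (20%) and lower for 1 (2.5%), where 26.2% of all tested genes were called, 13.5% higher and 12.7% lower. Plk1 and Ube2c were higher and Espl1 lower in every setting, and these are the only 3 of the 9 calls of which that holds. The higher count fell to 3 without CDC50A KD 2, 4 without CDC50A KD 1 and 5 without CDC50A KD 3 or ATP11A/C KD 1, 3 or 4, and the lower count was 3 without ATP11A/C KD 1.

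**Figure D3:**
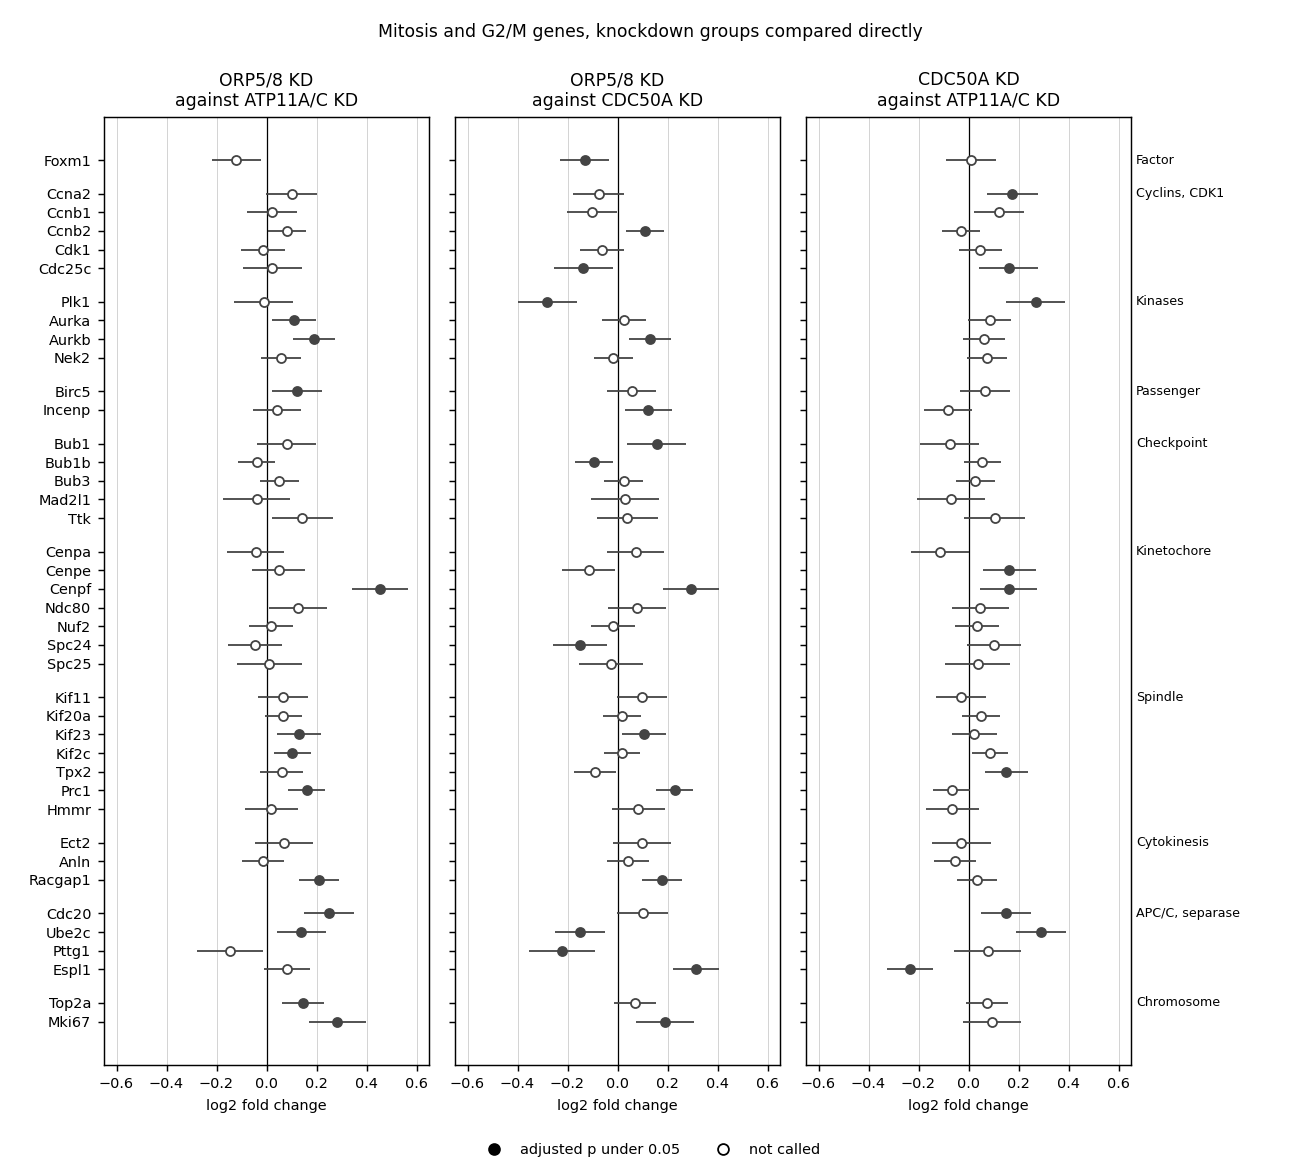
Log2 fold change of each of the 40 genes in the 3 direct comparisons between KD groups, grouped by role, with 95% confidence intervals (4 against 4 libraries). Filled points passed an adjusted p of 0.05; Cenpf and Plk1 are the farthest to either side, at 0.45 for ORP5/8 against ATP11A/C KD and -0.28 for ORP5/8 against CDC50A KD.

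The wider cell cycle was read from 9 further gene lists of 209 genes, none of which is among the 40 (Cdc25a is in 2 of the lists). In ORP5/8 KD the other spindle, motor and cytokinesis genes included 18 of 36 (50%) that rose and 1 that fell (median 0.14), beside 22% higher and 24.3% lower over all tested genes. The lower gene was Sass6 (-0.75 ± 0.0481, adjusted p = 2.86e-11), which builds the cartwheel of new centrioles, and Aspm, a spindle pole protein, was among those that rose (0.31 ± 0.0416, adjusted p = 2.34e-06). Of the condensin, cohesin and chromosome structure genes 10 of 19 rose and 1 fell (0 to 1 under the other settings), led by Ncapd2, a condensin I subunit, from 202 ± 4.09 to 286 ± 5.4 CPM (0.50 ± 0.0459, adjusted p = 9.93e-09). Of the other kinetochore, centromere and checkpoint genes 11 of 35 (31.4%) rose and 4 (11.4%) fell (7 to 16 rose under the other settings), with Pmf1, a subunit of the MIS12 complex, at 0.30 ± 0.0537 (adjusted p = 9.38e-05).

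Of the G1 and G1/S cyclins and kinases, 7 of 14 (50%) fell and 1 rose (1 to 4) in ORP5/8 KD, compared with 24.3% lower and 22% higher over all tested genes. Ccnd1, cyclin D1, went down from 499 ± 17.6 to 196 ± 7.55 CPM (-1.35 ± 0.0445, adjusted p = 3.14e-16), and its partner Cdk6 was at -0.82 ± 0.0634 (adjusted p = 6.71e-10). The CDK inhibitors and brakes were split, with 5 of 13 (38.5%) lower and 4 (30.8%) higher. Those that fell included Cdkn1a, which encodes the CDK inhibitor p21, at -1.20 ± 0.0514 (adjusted p = 2.77e-14), and Ccng1, cyclin G1, at -0.86 ± 0.0592 (adjusted p = 9.83e-11). Btg2, an antiproliferative gene, rose by 1.36 ± 0.0763 (adjusted p = 2.94e-12). Of the DNA replication genes 13 of 37 (35.1%) fell, 7 (18.9%) rose and 17 were not called (median -0.03), with Mcm10 at -0.35 ± 0.0376 (adjusted p = 1.37e-07) and Gins3 at 0.39 ± 0.0454 (adjusted p = 3.38e-07).

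In CDC50A KD 20 of the 37 replication genes (54.1%) were higher and 2 (5.41%) lower (median 0.14), beside 24.3% higher and 26.1% lower over all tested genes. Fen1, the flap endonuclease of Okazaki fragment processing, rose by 0.36 ± 0.0397 (adjusted p = 2.16e-07), and the helicase subunits Mcm3 and Mcm5 by 0.29 ± 0.0354 (adjusted p = 7.9e-07) and 0.30 ± 0.0391 (adjusted p = 1.97e-06). Of the G1 and G1/S genes 8 of 14 (57.1%) rose and 2 (14.3%) fell. The smallest adjusted p of that list belonged to Cdk6, which fell (-0.53 ± 0.0632, adjusted p = 6.42e-07), while Ccnd2, cyclin D2, rose (0.57 ± 0.0982, adjusted p = 5.69e-05). Of the anaphase-promoting complex and its regulators 6 of 17 (35.3%) rose and 2 (11.8%) fell, with Ube2s, which extends its ubiquitin chains, at 0.52 ± 0.0729 (adjusted p = 5.3e-06). Of the other spindle genes 9 of 36 (25%) fell, a share at the background, and 5 (13.9%) rose (2 to 7 under the other settings). Among them Kif20b was at -0.38 ± 0.0639 (adjusted p = 4.92e-05) and Psrc1 at -0.59 ± 0.0938 (adjusted p = 2.57e-05). Ran, from the same list, rose by 0.38, with an adjusted p of no more than 1.16e-06 in any setting.

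In ATP11A/C KD 11 of 37 replication genes (29.7%) rose and 2 (5.41%) fell (median 0.07), beside 17.4% higher and 20.2% lower over all tested genes. Tk1, thymidine kinase, rose by 0.30 ± 0.0485 (adjusted p = 3.72e-05). The other spindle genes had smaller shares than all tested genes, 4 of 36 (11.1%) higher and 4 (11.1%) lower (3 to 11 rose under the other settings). So did the other kinetochore genes, 5 of 35 (14.3%) higher and 4 (11.4%) lower (1 to 5 lower). Cdc25b, a CDC25 phosphatase of mitotic entry, fell in both ATP11A/C and CDC50A KD, at -0.58 ± 0.0496 (adjusted p = 4.99e-09) and -0.55 ± 0.0498 (adjusted p = 1.47e-08).

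The remaining counts are to be read against the shares over all tested genes, which were 22% higher and 24.3% lower in ORP5/8 KD, 17.4% and 20.2% in ATP11A/C KD, and 24.3% and 26.1% in CDC50A KD. The DREAM, MuvB and cell cycle transcription factors, of which 21 were tested, moved in both directions. In CDC50A KD 9 (42.9%) rose and 6 (28.6%) fell, in ATP11A/C KD 7 (33.3%) rose and 2 (9.52%) fell (1 to 2), and in ORP5/8 KD 6 (28.6%) rose and 3 (14.3%) fell (1 to 3). Tfdp2 rose in ORP5/8 KD (0.89 ± 0.0617, adjusted p = 1.13e-10). E2f7, a repressor among the E2F factors, rose in ATP11A/C KD (0.48 ± 0.0555, adjusted p = 5.68e-07) and CDC50A KD (0.48 ± 0.0558, adjusted p = 5.4e-07). Mybl2 (B-MYB), which joins MuvB to turn on mitotic genes, rose in CDC50A KD (0.33 ± 0.0494, adjusted p = 1.2e-05).

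Of the 14 further G2/M entry kinases and phosphatases, 5 (35.7%) rose and 2 (14.3%) fell in ORP5/8 KD (0 to 3 fell under the other settings). The same numbers rose and fell in ATP11A/C KD (3 to 6 rose), and 7 (50%) rose and 4 (28.6%) fell in CDC50A KD (4 to 7 rose). Ccnf, a cyclin that serves as a ubiquitin ligase subunit, rose in ORP5/8 KD by 0.33 ± 0.0464 (adjusted p = 4.33e-06), and Cks1b, a CDK1-binding subunit, in CDC50A KD by 0.42 ± 0.054 (adjusted p = 1.64e-06). Of the 17 anaphase-promoting complex genes 3 (17.6%) rose in ORP5/8 KD (1 to 7) and 1 (5.88%) fell (0 to 1), while 3 rose and 2 (11.8%) fell in ATP11A/C KD (1 to 3 fell). These shares lay below the background except for that of the higher genes in ATP11A/C KD, which was level with it.

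Of the condensin and cohesin genes 2 of 19 (10.5%) rose in ATP11A/C KD (2 to 4), below the background, and in CDC50A KD 6 (31.6%) rose and 1 (5.26%) fell (0 to 2). Ncapd2 was higher in both, at 0.34 ± 0.0459 (adjusted p = 4.49e-06) and 0.38 ± 0.046 (adjusted p = 9.56e-07). Of the 35 other kinetochore genes 7 (20%) rose and 9 (25.7%) fell in CDC50A KD, both near the background. They included Pmf1 at 0.43 ± 0.0538 (adjusted p = 1.34e-06) and Nsl1, another MIS12 complex subunit, at -0.41 ± 0.0637 (adjusted p = 1.98e-05). Of the 13 inhibitors and brakes 3 (23.1%) rose and 4 (30.8%) fell in ATP11A/C KD, and 1 (7.69%) rose and 5 (38.5%) fell in CDC50A KD, where Cdkn1a was at -0.45 ± 0.0506 (adjusted p = 2.61e-07). Of the 14 G1 and G1/S genes 3 (21.4%) rose and 3 fell in ATP11A/C KD (3 to 5 rose), near the background.

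**Figure D4:**
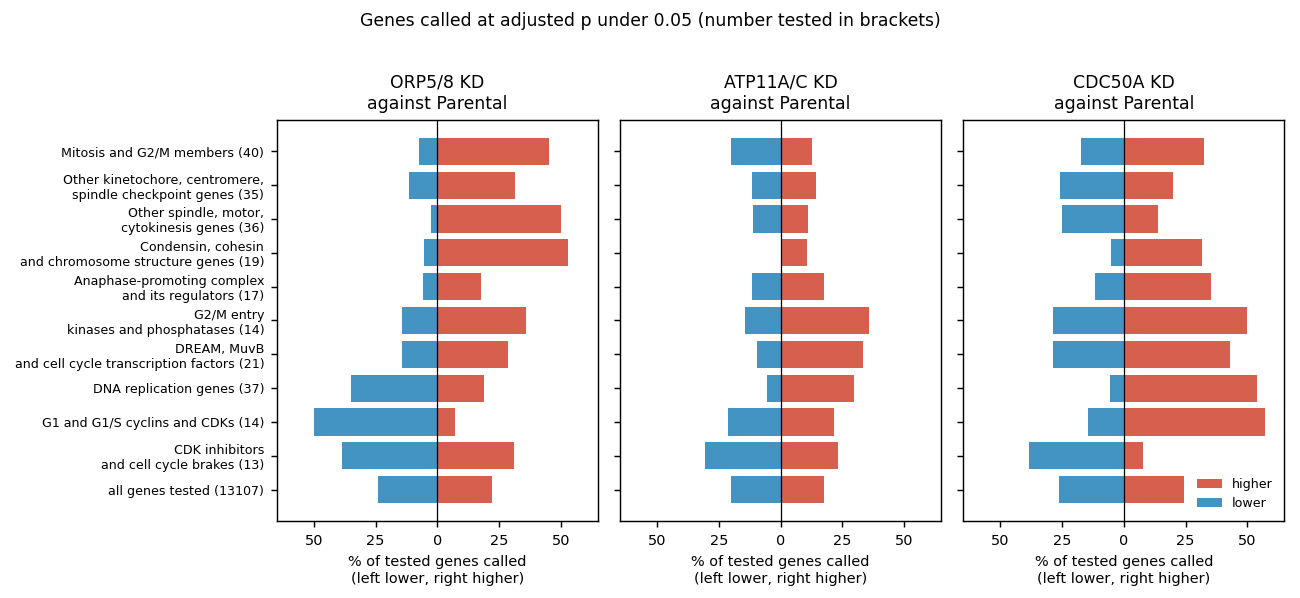
Share of tested genes called higher (right) and lower (left) at an adjusted p under 0.05, in percent on the horizontal axis, for the 40 genes, 9 further cell cycle lists and all 13107 tested genes, in each KD group against Parental. In ORP5/8 KD the bar of the 40 genes reaches 45% higher and 7.5% lower, beside 22% and 24.3% for all tested genes.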

How the data were processed

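RNA from 16 RAW264.7 libraries was measured. The submitters' processing notes name Trim Galore 0.5.0, STAR 2.7.5a, Picard, RSEM and the mm10 build, without their roles. The RSEM version and the annotation release are not given in the sources used here. The values deposited by the authors are RSEM expected counts per gene, with decimals in 4.63% of values. Members with decimals in any library are Ccnb1, Racgap1, Foxm1 and Cdc20. The 92 spike-in records, whose counts sum to 0, were left out. No column lacked a sample.

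Expected counts were rounded, genes were kept by filterByExpr (minimum count 10), TMM factors were applied, and the 16 libraries entered a single fit in edgeR 4.0.16 (R 4.3.3, limma 3.58.1) with its quasi-likelihood test and a term per group. The biological coefficient of variation was 6.86%. P-values were adjusted by Benjamini-Hochberg over 13107 genes within each of 6 comparisons, with 0.05 as the threshold for a call. Standard errors came from the estimate and its F statistic. "Rose", "fell" and "called" refer to that threshold. Levels per kilobase used merged exons of GENCODE M21, matched with version for 55180 identifiers. Promoter windows were taken from RefSeq on GRCm38.p6.

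Members were matched by symbol alone, but the names on this and the other lists were chosen with earlier results of these data known. Values in every library were given for Foxm1, Ccnb1, Cdk1, Plk1, Mki67 and Top2a and for the 3 highest and 3 lowest called members in each comparison with Parental. From the other lists, called genes were taken from the 3 with the smallest adjusted p per comparison, and not all are printed. Alternatives were upper-quartile scaling or DESeq2 size factors, testing without a low-count filter, keeping genes at 1 CPM or more in at least 4 libraries, the compared groups alone, the DESeq2 1.42.0 test, the replicate number as a block and leaving out each library. Their use on the other lists and on the mitochondrial share was chosen after seeing the data. The scripts were tested on simulated data. No 2 libraries of a group agreed within sampling noise (chi-square per degree of freedom 4.86 to 44.9 over 24 pairs). In 5 members (Ccna2, Nek2, Kif20a, Prc1 and Cdc20) an expressed gene on the opposite strand overlaps, and the file name states stranded counting.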

Additional observations from a re-analysis of the deposited data

Results flagged for a closer look

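In 7 of 168 sets of 4 libraries (the 40 genes and their summed level and the mitochondrial share in the 4 groups), 1 library lay far from the other 3. Chance alone gives about 1 in 20 such sets. In ORP5/8 KD, Incenp was at 255 CPM in library 3 and 235 to 237 in the others, Kif20a at 180.4 in library 4 and 194 to 196 in the others, and Hmmr at 131 in library 1 and 112 to 115 in the others. In ATP11A/C KD, Bub3 was at 213 CPM in library 2 and 194 to 197 in the others. In CDC50A KD, Spc24 was at 42.3 CPM in library 1 and 37.1 to 37.9 in the others, Anln at 151 in library 3 and 155.5 to 155.6 in the others, and Espl1 at 117 in library 2 and 126 to 127 in the others. ATP11A/C KD 2 was the highest library of its group for 24 of the 40 genes.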

How the results depend on the processing

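No called member changed direction under any alternative. Of the calls against Parental, 13 higher and 3 lower of 21 in ORP5/8 KD, 5 and 5 of 13 in ATP11A/C KD and 11 and 5 of 20 in CDC50A KD were made in all 15 other settings. Between KD groups the figures were 7 higher of 12 (ORP5/8 against ATP11A/C), 6 higher and 2 lower of 17 (ORP5/8 against CDC50A) and 2 higher and 1 lower of 9 (CDC50A against ATP11A/C).

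Upper-quartile scaling gave 8 higher in ATP11A/C KD against Parental, 21 higher in ORP5/8 against ATP11A/C KD, 22 higher and 2 lower in ORP5/8 against CDC50A KD and 5 higher in CDC50A against ATP11A/C KD. It put the summed level at 6902 CPM in ORP5/8 KD and 6378 in CDC50A KD. The DESeq2 test called 1 gene lower in ORP5/8 against ATP11A/C KD, the filter of 1 CPM left 4 lower in ORP5/8 against CDC50A KD, and the compared groups alone gave 4 higher in CDC50A against ATP11A/C KD. The cause was not tested. Leaving out 1 library gave 14 to 19 higher and 3 to 4 lower in ORP5/8 KD against Parental, 5 to 7 and 6 to 8 in ATP11A/C KD, and 11 to 13 and 5 to 7 in CDC50A KD. Between KD groups it gave 8 to 15 higher and 0 to 1 lower (ORP5/8 against ATP11A/C), 9 to 12 and 3 to 6 (ORP5/8 against CDC50A) and 3 to 7 and 1 to 3 (CDC50A against ATP11A/C).

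The replicate numbers did not pair the libraries: deviations of same-numbered libraries correlated at -0.17 to 0.11 over 24 pairs, and of others at -0.14 to 0.14 over 72. With the replicate number as a block, 19 of 21, 13 of 13 and 18 of 20 calls against Parental were made again in ORP5/8, ATP11A/C and CDC50A KD, and 11 of 12, 15 of 17 and 8 of 9 between KD groups. With 4 libraries a group and this spread, differences of a few percent could not be told from 0, and mRNA levels measure neither protein nor, by themselves, the share of cells in mitosis.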
